A study of Homo sapiens with 24 samples.

Results

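The peak lists of RBFOX2 replicates 1 and 2 and of a single IgG control library, all made from 293T cells with 40 U of RNase I, are described here, with every peak of the 3 lists included. They are 3 of the 24 samples of the series, chosen by title and RNase amount; the RBFOX2 libraries of the RNase series, which include 40 U, were not analysed here. RBFOX2 is an RNA-binding protein that regulates alternative splicing. Its single RNA recognition motif binds GCAUG-containing elements, many of them in introns, and bound elements downstream of a cassette exon generally favour its inclusion, while upstream elements generally favour skipping. In enhanced CLIP (eCLIP), RNA is crosslinked to protein with ultraviolet light, trimmed with RNase, recovered with an antibody and sequenced beside a size-matched input. An isotype control IgG recognises no intended cellular target and shows what is recovered without a specific antibody.

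293T is an established human embryonic kidney line that carries the SV40 large T antigen. Cells were crosslinked on the plate at 254 nm and 400 mJ/cm2, and every lysate received 40 U of RNase I. The RBFOX2 antibody was a Bethyl product of the same lot in both replicates, and the control was a Thermo Fisher IgG isotype control. A stretch of membrane reaching 75 kDa above the protein was taken, and the labels do not say which size served for the IgG lane. The fold of each list is over input, and the samples include 40 U inputs. Nothing in the labels says that the RBFOX2 replicates came from separate cultures, so the spread between them may be technical. With 1 IgG library, no difference between RBFOX2 and IgG has a replicate check. An exact permutation test over these 3 libraries cannot go below p = 0.333 (two-sided), which is what the share of enriched peaks gave, so comparisons of the 2 antibodies are given as values without a test.

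The lists held 74902 peaks for RBFOX2 replicate 1, 97594 for replicate 2 and 28361 for IgG. Enriched is used here for a −log10 p of 5 or more together with a log2 fold over input of 3 or more (8-fold), both as deposited by the authors. Of the RBFOX2 peaks, 7.95% and 7.66% were enriched in replicates 1 and 2, and of the IgG peaks 0.18% (exact binomial 95% interval 0.134% to 0.236%, counting error only). The mean RBFOX2 share was 7.81% ± 0.20 (SD, n = 2), or 43.4 times the IgG share. On the fold limit alone the shares were 12%, 11.6% and 4.12%. The share that reached the fold limit but missed the p-value limit was 4.03%, 3.91% and 3.94% in the 3 lists.

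The fold distributions of the lists had different shapes. The median log2 fold of all peaks was 0.73 and 0.86 in the RBFOX2 replicates and 1.31 in IgG. The middle 90% of peaks ran from −1.27 to 4.06 in replicate 1, from −1.55 to 3.94 in replicate 2 and from −0.36 to 2.90 in IgG. RBFOX2 lists thus reached further in both directions, while IgG had its bulk between input and the fold limit. Peaks with a log2 fold of 1 to 3 made up 52.2% of the IgG list, against 32.2% and 35.2% of the RBFOX2 lists.

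**Figure D1:**
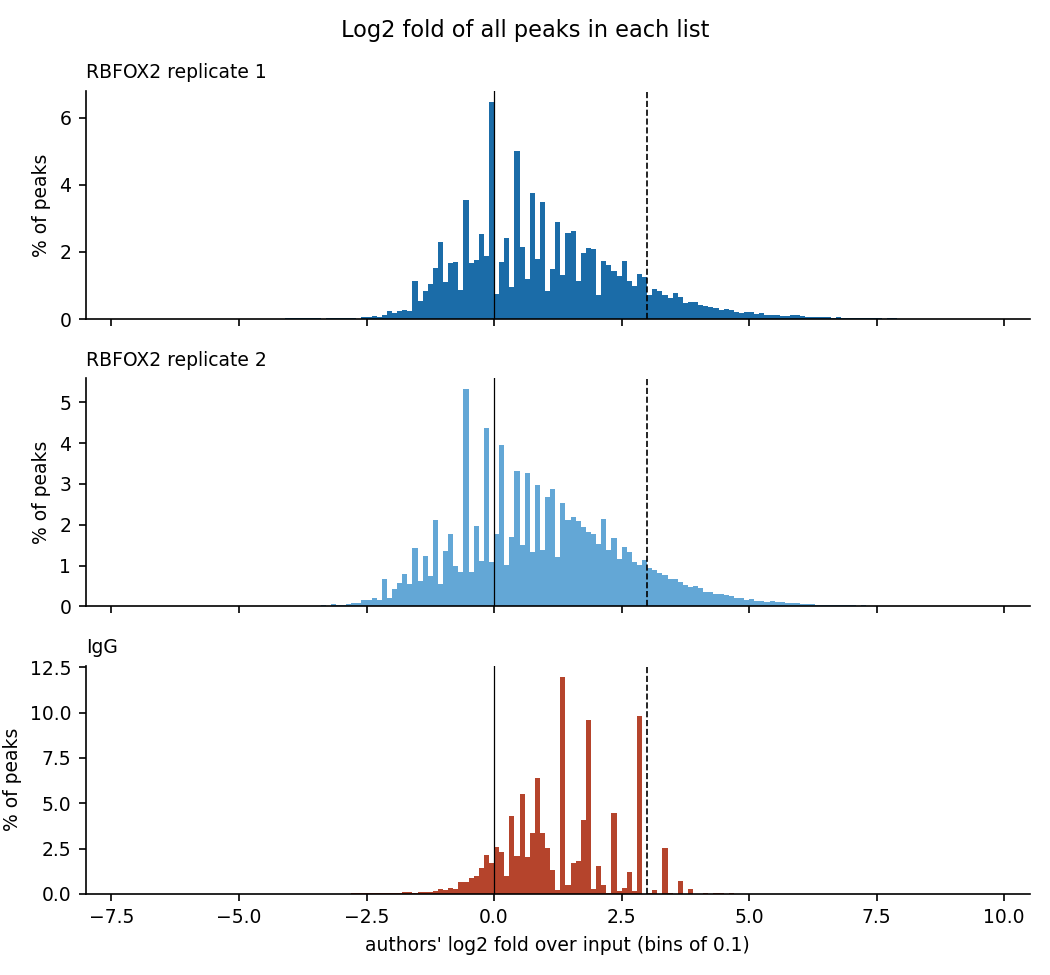
Share of peaks in each bin of 0.1 of the authors' log2 fold over input (x axis), for RBFOX2 replicate 1, RBFOX2 replicate 2 and IgG; the solid line marks input level and the dashed line the log2 fold limit of 3. IgG peaks stand in a few tall bars between 0 and 3, while the RBFOX2 lists spread from below input to above 9.

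The folds fell on discrete steps, which bear on how RBFOX2 and IgG can be compared. In each list the frequent log2 folds equalled the log2 of a ratio of whole numbers plus a constant offset of that list, −1.59 and −2.14 for RBFOX2 replicates 1 and 2 and 1.31 for IgG. With that offset, 63.5%, 58.0% and 90.4% of all peaks lay within 1e-05 of a ratio of whole numbers up to 20. For 69.6%, 68.7% and 81.1% of the peaks at or above input, exactly 1 pair of whole numbers gave back both deposited columns, the fold and the p-value, the latter as a two-sided exact binomial test of the pair. The lists do not state what these numbers are; numbers of reads in immunoprecipitation and input, with the offset as the log2 ratio of the input total to the immunoprecipitation total, would have this form. On that reading the immunoprecipitation total was 3.005 and 4.40 times its input's in the RBFOX2 replicates and 0.403 times in IgG.

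A given fold therefore stood on different numbers in the RBFOX2 and IgG lists. A pair of 3 to 1 corresponds to a log2 fold of −0.00 in RBFOX2 replicate 1, −0.55 in replicate 2 and 2.90 in IgG. Against an input number of 1, the fold limit needs at least 25 and 36 in the RBFOX2 replicates and 4 in IgG, and both limits together need at least 51, 73 and 11. The most frequent matched IgG pair was 3 to 1, at 2634 peaks, followed by 3 to 2 at 2388 peaks. The median matched pair had an immunoprecipitation number of 4 in IgG, against 20 and 25 in the RBFOX2 replicates. Among enriched peaks with a matched pair, the median number was 86 (3223 peaks) and 120 (4161 peaks) in RBFOX2 and 15 (25 peaks) in IgG. The quartiles of the matched IgG number were 3 and 5, against 12 and 35 in RBFOX2 replicate 1 and 15 and 47 in replicate 2.

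Enriched RBFOX2 peaks were wider than the other peaks of their lists. The median width was 35 and 36 nt over all RBFOX2 peaks and 32 nt over all IgG peaks. Enriched peaks had medians of 55 and 51 nt in the RBFOX2 replicates, with quartiles of 37 and 76 nt and of 33 and 70 nt. Peaks below input had medians of 30 and 31 nt. The 51 enriched IgG peaks also had a median of 51 nt, but the 3041 IgG peaks below input had a median of 33 nt, no narrower than the list as a whole. The shortest peak in each list was 1 nt, and the longest were 257, 232 and 316 nt.

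Wider RBFOX2 peaks had higher median folds, and IgG peaks of over 40 nt had lower ones than shorter IgG peaks. From peaks of up to 20 nt to peaks of over 100 nt the median log2 fold went from 0.29 to 2.39 in RBFOX2 replicate 1 and from 0.19 to 1.98 in replicate 2. In IgG it went from 1.31 to 0.55. The enriched share went from 3.34% to 35.4% and from 4.52% to 25.5% in the RBFOX2 replicates, and from 0.0676% to 1.68% in IgG. Peaks of over 100 nt were 2.15% and 1.99% of the RBFOX2 lists and 1.05% of the IgG list. These are descriptions across the peaks of each library.

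**Figure D2:**
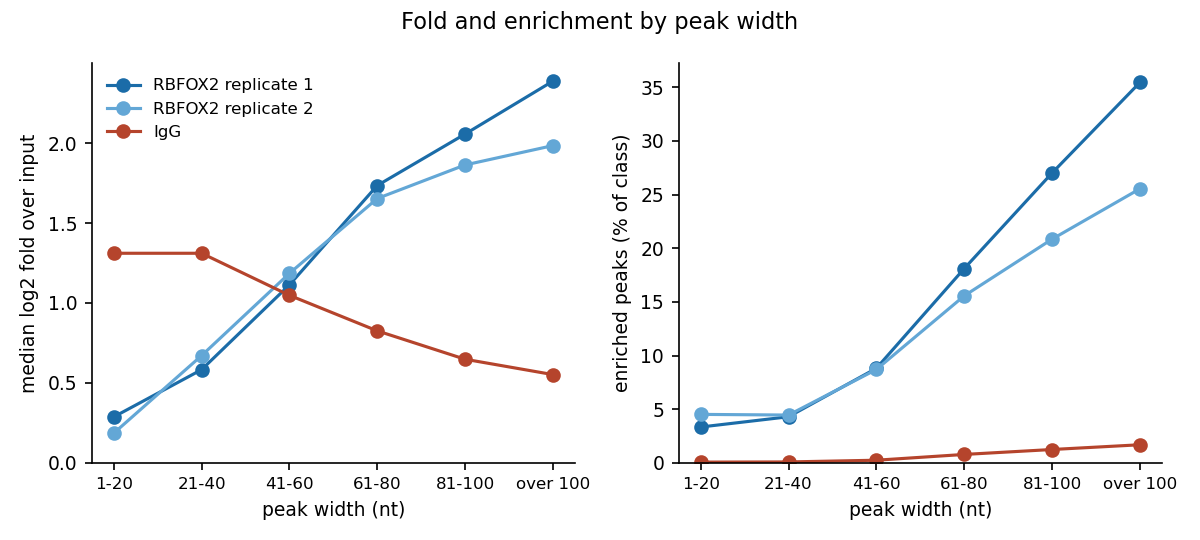
Median log2 fold over input (left) and share of enriched peaks (right) by peak width in nt, for RBFOX2 replicate 1, RBFOX2 replicate 2 and IgG. Both quantities are higher in wider RBFOX2 peaks, reaching medians of 2.39 and 1.98 in peaks over 100 nt, while the IgG median is 1.31 up to 40 nt and ends at 0.55.

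RBFOX2 peaks lay closer together than IgG peaks, and enriched peaks of both antibodies touched a neighbour more often than the peaks of their lists as a whole. Of neighbouring RBFOX2 peaks on a strand, 7.43% and 8.25% touched end to end without overlapping, against 2.39% in IgG. The gap between neighbours was at most 1 kb in 53.4% and 56.8% of cases for RBFOX2 and in 34.2% for IgG. Among enriched peaks, 32.8% and 35.2% of RBFOX2 neighbours touched, and 36.7% of IgG neighbours (11 of 30). Enriched RBFOX2 peaks that did not touch were further apart, with median gaps of 37452 and 13253 nt against 1035 and 746 nt over all RBFOX2 peaks. Joining touching enriched peaks left 4016 and 4861 RBFOX2 sites with median widths of 68 and 65 nt, the longest of 845 and 865 nt, and 40 IgG sites with a median of 54 nt. The lists differ in length, and the part of list length in these spacings was not tested.

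The plus strand held 50.7% and 51.3% of all RBFOX2 peaks and 50.5% of IgG peaks, 52.9% and 54.9% of enriched RBFOX2 peaks and 43.1% of the 51 enriched IgG peaks. By chromosome, the share of peaks in the RBFOX2 and IgG lists differed by at most 0.874 percentage points for replicate 1 (chromosome 1) and 0.947 points for replicate 2 (chromosome X).

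Of the enriched peaks, 4089 (68.7%) of RBFOX2 replicate 1 and 4544 (60.7%) of replicate 2 met an enriched peak of the other replicate. Where they met 1 to 1, their ends often lay close together. For 1609 pairs in which 1 enriched peak of replicate 1 met exactly 1 of replicate 2, the 5′ ends differed by a median of 5 nt and the 3′ ends by a median of 6 nt, with a median shift of 0 nt at both ends. The 5′ ends lay within 5 nt of each other in 52.2% of pairs and the 3′ ends in 48.4%. IgG peaks of any fold, enriched or not, mostly did not share the borders of the enriched RBFOX2 peaks they met. In 369 such pairs with replicate 1 the IgG peak began 18 nt further 3′ and ended 24 nt further 5′ (medians), and in 374 pairs with replicate 2 the values were 16 and 24 nt. The IgG peaks were narrower, with a median width of 33 and 32 nt against 80 and 73 nt for the RBFOX2 peaks. The share of pairs with the IgG peak inside at both ends was not counted. The 5′ end of the IgG peak lay within 5 nt of the RBFOX2 end in 9.76% and 16.3% of pairs.

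Enriched peaks that passed in only 1 RBFOX2 replicate mostly met a peak of the other that was not enriched. Of the enriched peaks of replicate 1, 1410 (23.7%) met a peak of replicate 2 that was not enriched, and 455 (7.64%) met none. In the reverse direction the numbers were 2090 (27.9%) and 846 (11.3%). Where a peak that was not enriched was met, the median log2 fold in the other replicate was 2.77 and 2.56. The fold there was below input at 1 and 3 of these peaks. Peaks without any partner were narrower, with medians of 33 and 36 nt against 55 and 51 nt for peaks enriched in both. IgG peaks lay at 15.7% and 15.2% of the enriched peaks that passed in both replicates. The shares were 5.89% and 7.13% where the partner was not enriched, and 0.879% and 1.18% without a partner.

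Nucleotides of 1 strand covered by enriched peaks of both RBFOX2 replicates made 2618 regions, 216213 nt in all. Their median width was 64 nt, the quartiles were 45 and 98 nt, and the range was 1 to 845 nt. Regions came in tight groups. Another region lay within 50 nt for 27.2% of them, within 100 nt for 37.3%, within 1 kb for 56.4% and within 5 kb for 60.8%. Inside loci, which join regions up to 1 kb apart, the median gap was 72 nt, with quartiles of 28 and 180 nt. Beyond 1 kb the median gap to the next region of the strand was 847639 nt. Of the 1585 loci, 443 held at least 2 regions and together 1476 regions, and 85 held at least 5. A gap between enriched peaks of 1 replicate splits a region even where a peak of the other replicate runs across it. The neighbouring regions chr19:10908664-10908712 and chr19:10908724-10908754 (plus strand), for example, each had 3.17 and 6.02 in replicates 1 and 2. The part of such splitting in the spacing and in the number of regions per locus was not tested.

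Loci with more regions also had higher folds. The median log2 fold of a region, taken as the highest peak touching it in the lower replicate, was 3.71 in the 1142 loci of 1 region, 4.05 in the 207 loci of 2, 4.16 in the 151 loci of 3 or 4 and 4.36 in the 85 loci of 5 or more. Regions in the largest loci were no wider, with a median of 57 nt against 64 nt in single ones. The median length of loci with 5 or more regions was 1079 nt.

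The 5 loci with the most regions are given in hg19 coordinates counted from 1, without gene names, since no hg19 annotation was used here. At chr19:10906918-10909005 (plus strand) 13 regions with log2 folds of 3.17 to 5.78 in their lower replicate covered 858 of 2088 nt. RBFOX2 replicates 1 and 2 had 24 and 32 peaks there, of which 22 and 31 were enriched. IgG had 3 peaks in this locus, none of them enriched (0 of 3), with a highest log2 fold of 2.31.

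At chr2:130919038-130921767 (minus strand) 12 regions ranged from 3.08 to 7.15 in the lower replicate, and all 26 and 29 RBFOX2 peaks were enriched. This locus had the most IgG peaks of the 5, 7 of them with 2 enriched and a highest log2 fold of 3.67. At chr11:858343-859752 (minus strand) 11 regions ranged from 3.61 to 5.58, and all 26 and 11 RBFOX2 peaks were enriched. Its 3 IgG peaks reached 3.77 without being enriched.

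At chr14:105812242-105814456 (plus strand) 11 regions ranged from 3.28 to 8.76. A single IgG peak, itself enriched at 4.63, lay in the strongest region, chr14:105813274-105813491, where RBFOX2 had 8.93 and 8.76; the other 10 regions of the locus held no IgG peak. At chr20:61914337-61916206 (plus strand) 11 regions ranged from 3.03 to 5.12 and covered 1210 of 1870 nt. Replicate 2 had 44 peaks there, all enriched, and replicate 1 had 28, of which 25 were enriched. IgG had 5 peaks, none enriched (0 of 5), at up to 3.05. In each of these 5 loci IgG peaks touched 1 to 4 of the regions.

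No IgG peak touched 2259 of the 2618 reproducible RBFOX2 regions, and 359 (13.7%, exact binomial 95% interval 12.4% to 15.1%) held one. Of all RBFOX2 peaks, enriched or not, 15.6% in replicate 1 and 11.2% in replicate 2 were touched by an IgG peak, so the share at reproducible regions lay between these. The units differ in width, with a median of 64 nt for regions against 35 and 36 nt for all peaks. The part of width in these shares was not tested. The share at regions depended on the overlap asked for. It was 3.48% where the IgG peak had to cover 50% of the region and 20.9% where it could lie within 100 nt. At the centre nucleotide of the region the share was 7.14% (6.19% to 8.20%). On the opposite strand an IgG peak was present at 2 regions, 0.0764%. An enriched IgG peak lay at 22 regions, 0.840% (0.527% to 1.27%). The intervals cover counting error over regions of 1 set of libraries and hold no spread between IgG libraries. Here and below they also treat regions as independent. Yet 1476 regions lay in loci of at least 2, and 1 IgG peak can touch several regions. Counted by locus, 288 of the 1585 loci (18.2%) held an IgG peak at a region.

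IgG coverage peaked at the region's centre. It was 7.14% there, 3.36% at 40 nt upstream, 2.52% at 40 nt downstream, and 1.64% and 1.87% at 500 nt on either side. RBFOX2 coverage, which is 100% at the centre by construction, was still 12.1% and 14.0% at 500 nt upstream and 11.4% and 13.3% at 500 nt downstream. The SLBP libraries, made with an antibody against the histone stem-loop binding protein and the same RNase I amount, covered 1.83% and 1.60% of centres. On the opposite strand IgG covered at most 0.0764% of regions at any distance up to 500 nt.

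**Figure D3:**
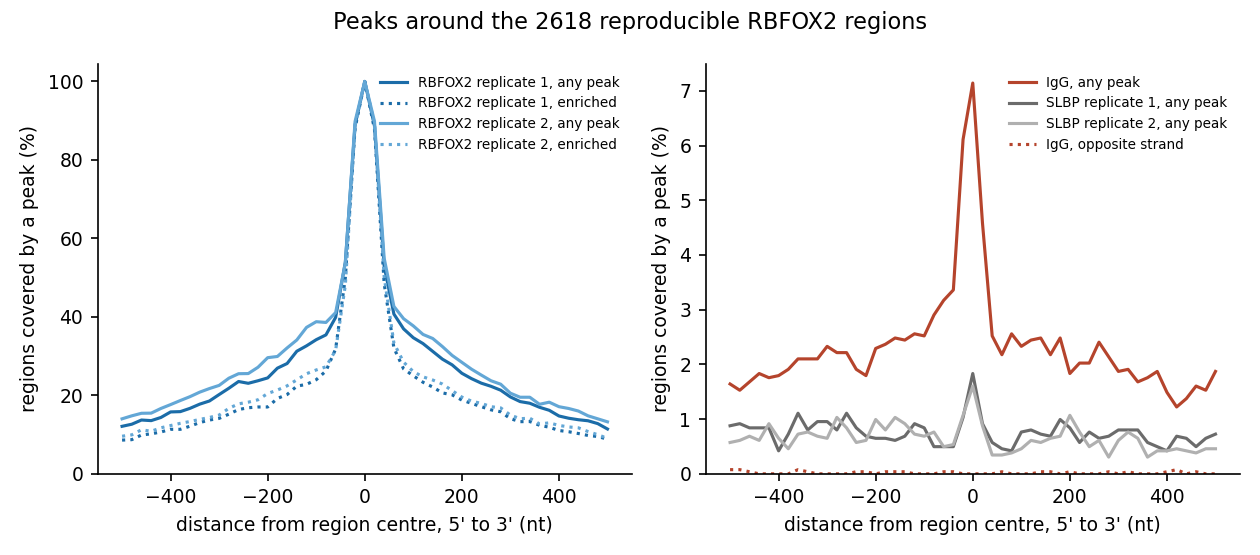
Share of the 2618 RBFOX2 regions covered by a peak at each distance in nt from the region's centre, oriented 5′ to 3′, for the RBFOX2 replicates (left; solid any peak, dotted enriched) and for IgG and SLBP (right, smaller axis; dotted IgG on the opposite strand). IgG stands at 7.14% at the centre and at 1.64% and 1.87% at the ends of the window; RBFOX2 is 100% at the centre by construction.

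Where IgG held a peak at an RBFOX2 region, its fold was below both RBFOX2 replicates at all but 6 of the 359 regions. The regions were chosen for a log2 fold of at least 3 in both RBFOX2 replicates, and no limit was set for IgG. In the whole IgG list 4.12% of peaks reached 3. RBFOX2 above IgG, and part of the size of the differences below, are thus set by that choice. The median IgG log2 fold at the 359 regions was 2.27, with quartiles of 1.31 and 2.90 and a range of −0.69 to 8.29. It was below input at 4 regions, between 0 and 3 at 268 and at least 3 at 87. RBFOX2 replicate 1 exceeded IgG by a median of 2.95 on the log2 scale and replicate 2 by 2.99. The lower of the 2 replicates exceeded IgG by a median of 2.48, with quartiles of 1.74 and 3.45, and by at least 3 at 122 regions (34.0%). These differences set folds of separately scaled lists side by side, and the offsets of those lists are as given above. Of the IgG peaks at these regions, 281 had a matched pair, with a median of 5 to 3. The IgG number was 3 in 53 of them and 10 or more in 37.

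**Figure D4:**
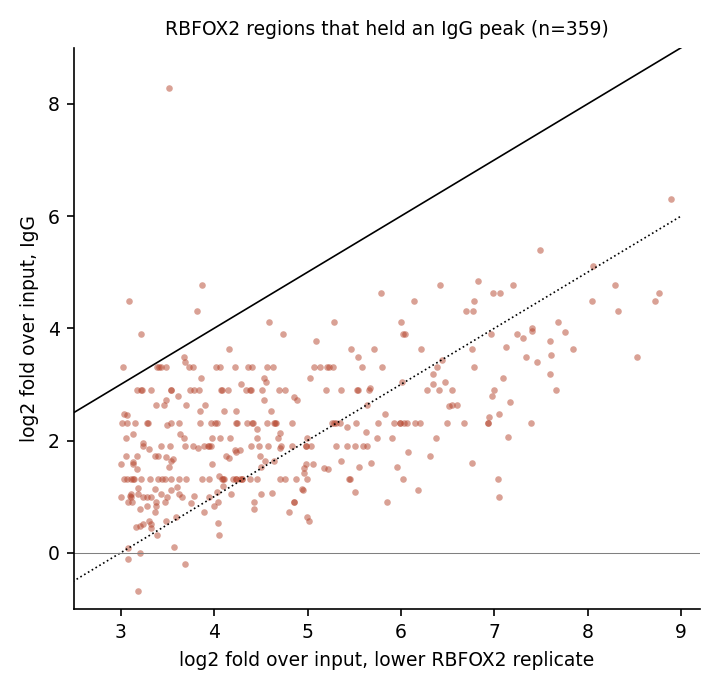
Log2 fold over input in IgG (y axis) against that in the lower RBFOX2 replicate (x axis) for the 359 RBFOX2 regions with an IgG peak; the solid line marks equal folds and the dotted line a difference of 3. All but 6 points lie below the solid line, and 122 lie on or below the dotted one. The regions were chosen for a log2 fold of at least 3 in both RBFOX2 replicates, with no limit on IgG.

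IgG peaks were found most often at the strongest RBFOX2 regions. By the log2 fold in the lower replicate, 10.0% of the 1319 regions from 3 to 4 held an IgG peak, 11.4% of the 867 from 4 to 5, 18.3% of the 290 from 5 to 6, 42.2% of the 102 from 6 to 7 and 80.0% of the 40 at 7 or more (exact binomial 95% interval 64.4% to 90.9%). Enriched IgG peaks lay at 3, 0, 0, 3 and 16 of these regions. The median IgG log2 fold where a peak was present was 1.65, 1.90, 2.31, 2.90 and 3.80. Stronger regions were also wider, with median widths of 57, 67, 97.5, 155 and 221 nt. At the centre nucleotide alone, a single position whatever the width, the shares were 6.07%, 6.57%, 6.21%, 15.7% and 40.0%. Across the 359 regions the lower RBFOX2 fold and the IgG fold had a Pearson's r of 0.52 and a Spearman's rho of 0.49, a description over regions of the same libraries.

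In the SLBP libraries the shares were lower. Peaks of SLBP replicates 1 and 2 touched 3.34% and 3.18% of the RBFOX2 regions from 3 to 4, 3.69% and 2.77% of those from 4 to 5, 0.690% and 1.03% of those from 5 to 6, 3.92% and 2.94% of those from 6 to 7, and 10.0% and 5.00% of those at 7 or more, which is 4 and 2 of 40 regions. Over all 2618 regions they touched 86 and 74, of which 2 in each were enriched. Regions with an IgG peak held an SLBP peak in 14.2% and 10.0% of cases, against 1.55% and 1.68% of regions without one, and 18 regions held peaks of IgG and both SLBP libraries. Regions with an IgG peak were wider, with a median of 108 nt against 60 nt, and the part of width in this difference was not tested.

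**Figure D5:**
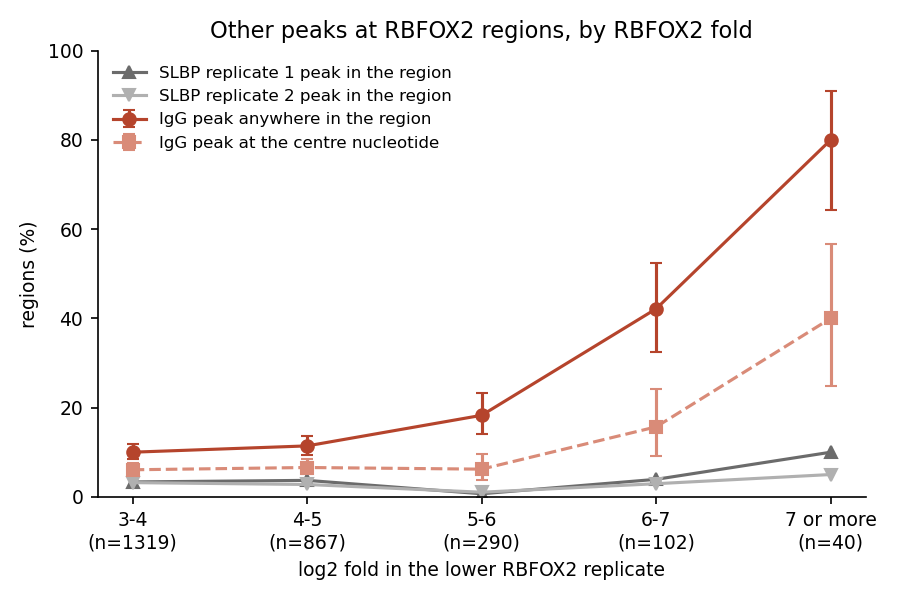
Share of RBFOX2 regions (y axis) with an IgG peak (circles), with an IgG peak at the centre nucleotide (squares) or with an SLBP peak (triangles), by the log2 fold in the lower RBFOX2 replicate (x axis, number of regions under each class); error bars on the IgG points are exact binomial 95% intervals. The IgG share is 10.0% in the lowest class and 80.0% in the highest, and the SLBP shares in the highest class are 10.0% and 5.00%.

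Some of the strongest regions held no IgG peak themselves, though other regions of the same locus could hold one. Of the 10 with the highest lower-replicate fold among these, taking 1 per locus, all had log2 folds of at least 6.79 in both replicates. The first, 48 nt at chr10:3127101-3127148 (plus strand), stood alone in its locus with 7.72 and 7.61. The next were at chr16:3104546-3104637 (minus strand, 8.10 and 7.40) and at chr21:46622565-46622849 (plus strand, 7.23 and 7.92). At chr10:725633-725749 (minus strand) both replicates had 7.20, in a locus of 9 regions. chr18:20798308-20798379 (plus strand) had 7.06 and 7.35, and chr16:85679421-85679562 (plus strand) had 8.35 and 7.05 in a locus of 8 regions.

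The remaining 4 lay at chr17:80808141-80808255 (plus), chr22:47002558-47002747 (plus), chr14:23519579-23519698 (minus) and chr7:50815404-50815753 (minus), with lower-replicate folds of 6.79 to 6.98. No SLBP list of 40 U had a peak at any of the 10 regions. Such peaks were rare at all regions without an IgG peak, at 1.55% and 1.68% for SLBP replicates 1 and 2. All but the first belonged to loci of at least 3 regions.

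Where IgG did hold a peak, the widest margin over it was at chr15:72183511-72183680 (minus strand). RBFOX2 had 7.84 and 7.05 there and IgG 0.99. chr22:27069575-27069635 (plus strand) had 7.46 and 7.04 against 1.31, and chr16:2127730-2127968 (plus strand) had 6.81 and 6.77 against 1.59. At chr2:130919793-130919863 (minus strand), in the locus of 12 regions described above, RBFOX2 had 7.15 and 7.81 and IgG 2.07. At each of these regions both replicates stood more than 5 above IgG on the log2 scale.

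Of the other 6 in the 10 widest margins, chr7:43658764-43658957 (minus strand) had 7.90 and 7.39 against 2.31. chr2:240287798-240288011 (minus strand) had the highest RBFOX2 folds, 8.53 and 8.70, and the highest IgG fold, 3.48. An enriched IgG site of 6.31 lay nearby on that strand, at chr2:240287304-240287463. The remaining 4, at chr16:715166-715232 (plus), chr19:11342473-11342611 (minus), chr18:11767465-11767802 (plus) and chr5:137274686-137274757 (minus), had margins of 4.71 to 5.07. None of the 10 IgG peaks was enriched (0 of 10) and no SLBP peak of 40 U was present at any of them. The ranking by margin itself favours low IgG folds. Of all 359 regions with an IgG peak, 22 held an enriched one, and 14.2% and 10.0% held a peak of SLBP replicates 1 and 2.

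At 6 regions IgG was at or above the lower RBFOX2 replicate, with widths of 20 to 77 nt. At chr17:18965392-18965429 (plus strand) IgG had 8.29, RBFOX2 6.31 and 3.52, and SLBP replicates 1 and 2 8.24 and 7.35. At chr6:31958260-31958279 (plus strand) IgG had 4.77, RBFOX2 3.87 and 4.76, and SLBP 5.37 and 6.71. Both places were thus above input in all 5 lists examined here. The other 4 IgG peaks were not enriched. They lay at chr1:165868260-165868307 (plus strand), with 4.48 in IgG against 3.18 and 3.09. At chr19:879295-879355 (minus strand) IgG had 4.31 against 4.02 and 3.82, and at chr19:16630297-16630323 (minus strand) 3.90 against 3.22 and 3.31. At chr4:1745582-1745658 (plus strand) IgG had 3.31 against 3.03 and 3.47.

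IgG peaks lay most often on the RBFOX2 peaks that were below input, and least often on those just short of enrichment. They touched 27.7% and 20.9% of the RBFOX2 peaks below input in replicates 1 and 2. The share was 13.5% and 8.55% at log2 folds of 0 to 1, 8.23% and 5.87% at 1 to 2, and 5.99% and 4.50% at 2 to 3. It was 1.99% and 2.20% where the fold limit was reached but the p-value limit missed, and 12.2% and 11.4% at enriched peaks. Over all RBFOX2 peaks it was 15.6% and 11.2%, above the enriched class in replicate 1 and close to it in replicate 2. On the opposite strand the share was at most 0.0978% in every class of both replicates. Enriched peaks were wider than the others, at 55 and 51 nt against 44 and 45 nt in the class that missed the p-value limit.

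The IgG fold at these peaks was lowest on RBFOX2 peaks below input. The median IgG log2 fold was 0.31 and 0.46 at RBFOX2 peaks below input, 1.31 in both replicates at RBFOX2 folds of 1 to 2, 2.31 and 1.90 where only the fold limit was reached, and 2.31 and 2.21 at enriched RBFOX2 peaks. At RBFOX2 peaks below input, 33.6% and 28.5% of the IgG peaks were below input too; at enriched RBFOX2 peaks 0.687% and 0.588% were.

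From the side of the IgG list, 55.2% of the 28361 peaks met no peak of either RBFOX2 replicate. The share was 20.5% for IgG peaks below input, 45.3% at log2 folds of 0 to 1, 64.2% at 1 to 2, 73.9% at 2 to 3, 70.1% where the p-value limit was missed at a fold of at least 3, and 0% for the 51 enriched peaks. IgG peaks below input met RBFOX2 peaks in 74.9% and 62.3% of cases, and those RBFOX2 peaks were themselves below input in 89.9% and 90.8% of cases. Enriched RBFOX2 peaks were touched by 0.132% and 0.164% of IgG peaks below input, 0.695% and 0.941% of those at 0 to 1, 1.85% and 2.03% at 1 to 2, 2.96% and 3.01% at 2 to 3, and 6.89% and 7.61% of those that reached the fold limit only and 60.8% and 58.8% of the enriched ones. The share on enriched RBFOX2 peaks was thus higher in each higher IgG class.

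The 51 enriched IgG peaks made 40 sites, each of which met a peak of at least 1 RBFOX2 replicate. Of these, 24 lay on a reproducible RBFOX2 region, and at 22 of the 24 both RBFOX2 replicates were higher than IgG; the exceptions were the places on chromosomes 17 and 6 named above. A further 15 sites were not enriched in either RBFOX2 list, and the remaining site, at chr19:18548260-18548292 (minus strand), was enriched in replicate 1 at 5.19 and had 2.37 in replicate 2. Of the 15, 11 held peaks in both SLBP lists of 40 U, against 2 of the 24 on RBFOX2 regions. SLBP peaks of any fold were counted, also below input, as at chr6:126301040-126301081 (minus strand) with −0.02 in SLBP replicate 1. Over the whole IgG list, 21.9% and 20.2% of peaks met a peak of SLBP replicates 1 and 2. Among the 51 enriched IgG peaks the shares were 47.1% and 33.3%. The highest of the 15, chosen after their values were seen, were at chr14:50329528-50329567 (minus strand), with 6.40 in IgG, 0.16 in RBFOX2 replicate 1 and 5.55 in SLBP replicate 1, and at chr17:39874406-39874445 (plus strand), with 6.37 in IgG, 0.92 and 0.70 in RBFOX2 and 0.80 and 1.85 in SLBP. At the 15 sites no RBFOX2 peak passed both limits.

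The share of regions with an IgG peak was also set out by chromosome. Among the 23 chromosomes with regions, each with at least 30, it ran from 6.21% on chromosome 9 (9 of 145) to 20.7% on chromosome 20 (18 of 87). Chromosome 22 held 5.61% of the regions but 2.84% and 3.02% of the RBFOX2 peaks and 2.78% of the IgG peaks. Chromosome 9 held 5.54% of the regions and 3.55%, 3.71% and 3.19% of the peaks. Chromosome 12 went the other way, with 4.39% of the regions and 5.83%, 5.58% and 6.34% of the peaks.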

How the data were processed

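The values are those of the deposited peak lists, 1 per library, each with interval, strand, −log10 p-value and log2 fold over input. The columns have no header; the −log10 p and the log2 fold deposited by the authors were recognised from the ranges of the columns and from the whole-number pairs that match both. The submitters' processing notes name hg19 and the tools cutadapt, STAR, GATK, Picard and SAMtools. How peaks were called and scaled is not stated there. The −log10 p deposited by the authors runs from 0, held by every peak with a negative fold and by some up to a log2 fold of 1, to a ceiling of 400. A pile-up of 1684, 1887 and 4 peaks in RBFOX2 replicates 1 and 2 and IgG lies at 15.66, which is −log10 of 2.2e-16.

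Intervals were compared with Python 3.11.15, pandas 2.3.3, NumPy 2.4.6 and SciPy 1.17.1. Peaks met when they shared at least 1 nt on 1 strand. A region's value in a library is its highest touching peak. Whole-number pairs were sought up to 300 to 60, with tolerances of 1e-05 on log2 fold and 0.002 on −log10 p. The interval and pair functions were tested on simulated lists. Named regions were the 10 highest without IgG, the 10 widest margins over IgG and all with IgG at or above RBFOX2, at most 1 per locus; also the 5 loci with the most regions. A rule for the 5 highest enriched IgG sites without an RBFOX2 peak found 0. Members, limits and rules were chosen with earlier results of these data known. Motifs, sequences and genes were not analysed here, since no hg19 genome or annotation was used. Alternatives covered the limits, merging, overlap, window, replicates and join distance.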

Additional observations from a re-analysis of the deposited data

How the results depend on the processing

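Of 86 values under alternatives, 33 stayed within set limits and 53 moved. The limits were 1.5 times for a count and the exact binomial interval for a share of regions. For the median difference, the width and the share of IgG peaks, the limit was the SD between the RBFOX2 replicates. Only the median difference could change sign, and it stayed positive. The other results are counts, shares and widths, which have no direction to reverse. With −log10 p of at least 3, enriched IgG peaks numbered 135 (51 in the report), regions with any IgG peak were 11.2% (13.7%), with an enriched one 1.58% (0.840%), the median difference was 2.43 (2.48), IgG peaks on enriched RBFOX2 peaks were 2.03% (1.88%) and regions within 1 kb of another 54.1% (56.4%). With a log2 fold of at least 2, these were 86 IgG peaks, 15.4%, a difference of 2.02 and 2.66% of IgG peaks. With −log10 p of at least 8 and log2 fold of at least 4, there were 3301 enriched RBFOX2 peaks per library (6717), 17 IgG peaks, 1056 regions (2618), 20.0% with IgG, a difference of 3.09, 1.14% of IgG peaks and 59.5% within 1 kb. On fold alone these were 10137, 1168, 3934, 9.86%, 2.41, 2.12% and 52.2%, with an enriched IgG peak at 2.31% and a median RBFOX2 width of 49.5 nt (53). Merging touching peaks gave 4438.5 per library and 66.5 nt. Requiring 50% cover gave 3.48% and 0.267% of regions, a difference of 2.12 and 1.68% of IgG peaks. A window of 100 nt gave 20.9% and 2.63%. The length-weighted mean gave 2.30. Join distances of 100 nt and 5 kb gave 37.3% and 60.8%. Using 1 RBFOX2 library, whose merged enriched peaks then are the regions, gave 4016 to 4861 regions, 10.14% to 10.96% with IgG, 0.453% to 0.573% with enriched IgG, differences of 2.63 to 2.69, and 54.4% to 57.7% within 1 kb.

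Chosen after seeing the data, a limit of 8 on the whole-number ratio itself, without the list's offset, gave 20 enriched IgG peaks, 16.6% and 0.311% of regions, a difference of 1.88, 3.06% of IgG peaks and 58.4% within 1 kb. The centre nucleotide gave 7.14% and 2.43. The causes were not tested. No paired analysis was possible because there is 1 IgG library. The planned GCATG count and the planned gene lists were not run. With 1 IgG library and small IgG numbers behind most folds, the absence of an IgG peak is not absence of IgG signal.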
